A study of Mus musculus with 3647 samples.

Results

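The perineuronal net genes described here are 7 of the 23420 genes in the tables. They were chosen by name: the 4 lecticans Acan, Bcan, Ncan and Vcan, the link proteins Hapln1 and Hapln4, and tenascin-R (Tnr). All 7 were measured in every nucleus and cell with values. A perineuronal net is a lattice of extracellular matrix that wraps the cell body and proximal dendrites of certain neurons, most often fast-spiking inhibitory neurons that contain the calcium buffer parvalbumin (Pvalb). Hyaluronan chains made at the neuronal membrane form its backbone, lecticans (chondroitin sulfate proteoglycans) bind to hyaluronan, link proteins lock that bond, and tenascin-R joins lecticans to each other at their far ends. The thalamic reticular nucleus (TRN), a thin shell of inhibitory neurons around the thalamus, holds many parvalbumin neurons that carry such nets.

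Every library was made by Smart-seq2 from 1 mouse brain nucleus or 1 Patch-seq sample. The groups were TRN nuclei sorted on a violet DNA dye and the neuronal antigen NeuN (about 750 nuclei with values, 8 plates), TRN nuclei sorted on the dye alone (about 690, 13 plate names, called unselected here), and nuclei of TRN-adjacent tissue sorted on the dye alone, which the series' design text gives as thalamus and globus pallidus (240, 4 plates). Nuclei positive for GFP came from hippocampus (440, 7 plates), the M2 area of cortex (about 170, 3 plates), somatosensory cortex (about 150, 2 plates) and striatum (71, 1 plate), and the design text calls these parvalbumin-positive. Another 43 nuclei were labelled hippocampus without any sort, and the 95 Patch-seq samples of the TRN had none either. Numbers of nuclei of 100 or more are rounded to the nearest 10 throughout, and percentages come from the unrounded numbers. Strain, age, sex, genotype and the construct behind GFP are not given in the sources used here. No label names an animal, and every group therefore counted as 1 sample: no test between groups was possible, plate ranges (over plates with at least 10 nuclei of a class unless 5 is stated) are a spread of unknown source, counts of plates are over those with at least 5 nuclei of both classes, and every difference is a description of these nuclei. Counting intervals are exact binomial (Clopper-Pearson, 95%), and they cover counting error only.

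Values are TPM, transcripts per 1000000 in a library, a level that accounts for transcript length, so levels of different genes can be set side by side. TPM keeps no read depth, and the number of detected genes stands in for it: medians by group ran between 2426 in unselected TRN nuclei and 6654 in Patch-seq samples. A transcript was found in a nucleus where its TPM was above 0. Nuclei were clustered without the 7 genes and named from marker lists; in unselected TRN nuclei all 8 neuron markers were found in at least 50% of GABAergic neuron-like nuclei, all 8 oligodendrocyte markers in oligodendrocyte-like nuclei and all 8 astrocyte markers in astrocyte-like nuclei. Only 3 of the 4 GABAergic markers reached that share in GABAergic neuron-like nuclei. The GFP sort held other cells too: of 440 hippocampal nuclei 98 were GABAergic neuron-like and 220 glutamatergic neuron-like. A gene was called in a comparison where the mean TPM, each plus 1, differed at least 2-fold.

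In the genome (GRCm38) each of the 4 lecticans lay next to a link protein gene with 0 protein-coding genes between them, and 2 of these pairs held both genes from the set. Ncan (chr8:70093085-70120873, minus strand) and Hapln4 (chr8:70083457-70090862, plus strand) were 2222 bases apart, and Vcan (chr13:89655312-89742509, minus strand) and Hapln1 (chr13:89539796-89611652, plus strand) were 43659 bases apart. Bcan (chr3:87987531-88000230, minus strand) lay 21519 bases from Hapln2, and Acan (chr7:79053483-79115099, plus strand) 2 bases from Hapln3. Tnr (chr1:159523769-159931729, plus strand) spans the longest stretch. Short or non-coding genes overlap Ncan (Mir7066), Vcan (Gm16318 and Gm4117), Hapln1 (Gm8546) and Tnr (Gm10530, Gm37731 and Gm38039). Strand use in counting was not stated, and reads of such overlaps cannot be told apart.

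The promoters of 4 members are shown because their transcripts lay in different mixes of classes in the results that follow. Acan was mostly in GABAergic neuron-like and a few precursor-marker nuclei, Bcan in astrocyte-like nuclei and neurons, and Vcan was highest in precursor-marker nuclei. Hapln1, the neighbour of Vcan, had like means in GABAergic neuron-like and astrocyte-like nuclei of unselected plates (8.49 and 9.03 TPM). The windows run from 250 bases before to 50 after each RefSeq start (GRCm38.p6), 5′ to 3′ on the gene's strand, at chr7:79052976-79053275 (Acan, plus), chr3:88000307-88000606 (Bcan, minus), chr13:89742463-89742762 (Vcan, minus) and chr13:89540386-89540685 (Hapln1, plus); RefSeq starts differ from those of the gene models above. Capitals mark matches on either strand to CCAAT (the CAAT box), GGGCGG (a GC box), CAGCTG (an E-box) or TATAAA (the TATA box).
Acan: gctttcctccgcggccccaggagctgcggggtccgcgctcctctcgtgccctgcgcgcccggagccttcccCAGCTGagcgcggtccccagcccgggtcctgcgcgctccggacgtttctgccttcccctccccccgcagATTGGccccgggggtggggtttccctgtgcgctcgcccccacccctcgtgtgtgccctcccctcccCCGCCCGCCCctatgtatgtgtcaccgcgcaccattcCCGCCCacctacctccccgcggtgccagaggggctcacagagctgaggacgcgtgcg
Bcan: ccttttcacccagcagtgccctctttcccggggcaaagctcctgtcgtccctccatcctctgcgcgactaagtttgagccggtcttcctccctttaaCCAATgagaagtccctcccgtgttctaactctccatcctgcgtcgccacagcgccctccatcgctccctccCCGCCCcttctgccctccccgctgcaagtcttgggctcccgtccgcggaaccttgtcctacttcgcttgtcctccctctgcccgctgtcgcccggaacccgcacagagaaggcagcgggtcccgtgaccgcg
Vcan: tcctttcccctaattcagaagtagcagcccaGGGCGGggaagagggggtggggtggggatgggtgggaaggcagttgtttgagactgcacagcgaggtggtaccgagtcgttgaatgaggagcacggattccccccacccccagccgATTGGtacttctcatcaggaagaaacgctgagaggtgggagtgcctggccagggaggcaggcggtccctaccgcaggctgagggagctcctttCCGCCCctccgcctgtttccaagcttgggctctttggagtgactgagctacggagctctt
Hapln1: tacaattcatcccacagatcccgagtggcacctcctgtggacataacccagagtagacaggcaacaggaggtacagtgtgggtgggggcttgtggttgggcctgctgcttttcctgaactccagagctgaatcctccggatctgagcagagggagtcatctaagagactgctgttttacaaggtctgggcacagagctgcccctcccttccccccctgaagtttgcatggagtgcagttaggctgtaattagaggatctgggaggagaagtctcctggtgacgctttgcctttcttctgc

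RefSeq windows were matched for 6 of the 7 members, all but Hapln4. The Acan window held GGGCGG at 44, 40 and 7 bases before the start, the first 2 of them overlapping, with a CCAAT match and a CAGCTG match further upstream, and its GC content was 74%, against a median of 52.7% over all 32851 windows. Bcan and Vcan (GC 64% and 61%) each held CCAAT and GGGCGG but no CAGCTG. The Hapln1 window (54.3% GC) held none of the 4 motifs, and neither did that of Tnr (48% GC). Over the members, CCAAT was in 3 of 6 windows (37.4% of all windows), GGGCGG in 4 of 6 (35.7%), CAGCTG in 2 of 6 (16.3%) and TATAAA in 1 of 6, that of Ncan (13.6%). These letter matches are descriptions of the windows, not binding sites.

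Which cells held each transcript was read in unselected TRN nuclei, where neurons and glia came from the same plates. Neuron-like nuclei (n about 290, median 4374.5 detected genes) held all 7 transcripts, astrocyte-like nuclei (n = 80, 2160.5 detected genes) held Bcan and Ncan at higher mean levels than neurons, and oligodendrocyte-like nuclei (n about 290, 1989 detected genes) held little of any. Of the oligodendrocyte-like nuclei 77.6% had none of the 7 transcripts. Detected genes moved with class, and their part in the differences was not tested. Among nuclei with 3000 to 6000 detected genes the number of members called was the same to within 1.5 times. That window lies above the median of both glial classes, so it holds only a minority of their nuclei and cannot settle the part of depth.

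**Figure D1:**
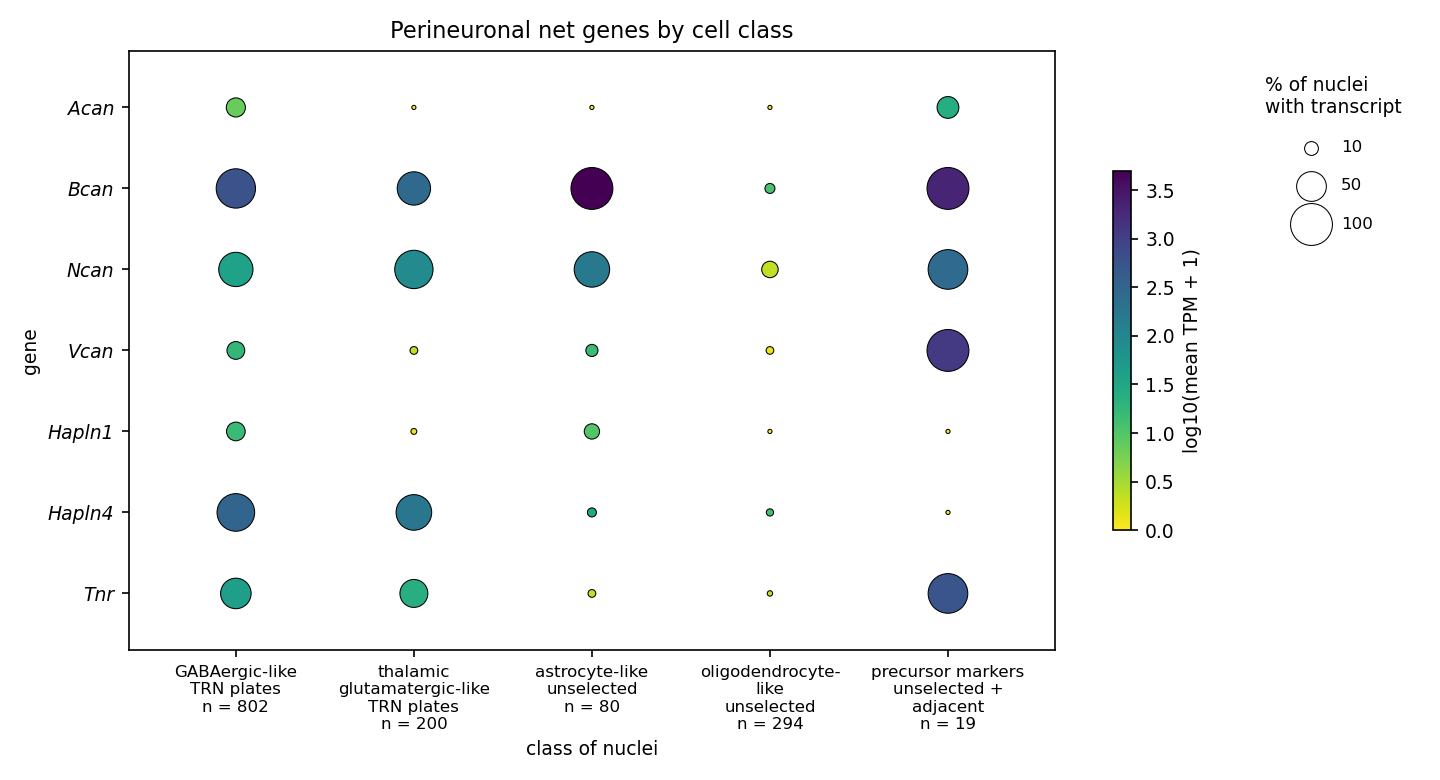
Circles give each gene (vertical axis) in 5 classes of nuclei (horizontal axis); area is the percentage of nuclei with the transcript and colour log10 of mean TPM plus 1. Bcan is darkest in astrocyte-like nuclei, at 4986 TPM, Vcan in the 19 nuclei with precursor markers, at 1203.3 TPM, and Acan is at 0 in thalamic glutamatergic, astrocyte-like and oligodendrocyte-like nuclei.

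Acan, the aggrecan core protein, averaged 5.63 TPM in neuron-like nuclei, with plate means of 0 at the lowest, 2.36 at the median and 18.5 at the highest over 13 plates with at least 5 such nuclei. It was listed at 0 in all oligodendrocyte-like and all 80 astrocyte-like nuclei. Among neuron-like nuclei 42 had it (14.7%, 95% interval 10.8 to 19.3%), and the intervals reached 1.25% for oligodendrocyte-like and 4.51% for astrocyte-like nuclei. All 42 were GABAergic neuron-like. Plate means of neurons were above those of oligodendrocyte-like nuclei in 11 of 12 plates and equal at 0 in the other.

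Bcan, brevican, a small lectican without long sulfate-chain regions, was the most abundant member in both neurons and astrocytes. Mean Bcan was 513.7 TPM in neuron-like, 4986 TPM in astrocyte-like and 10.6 TPM in oligodendrocyte-like nuclei. It was found in 81.1% of neuron-like nuclei, 80 of 80 astrocyte-like nuclei and 14 oligodendrocyte-like nuclei (4.76%), the last being the share in a class that holds little of it. Neurons were below astrocytes in 10 of 10 plates (log2 ratio -3.28) and above oligodendrocytes in 12 of 12 (log2 ratio 5.47). Over plates with at least 5 nuclei of the class, means of neuron-like nuclei ran between 178.3 and 747.4 TPM with a median of 506.9 TPM, and those of astrocyte-like nuclei between 2985 and 5820 TPM, without overlap. The summed level of 8 astrocyte markers was 121.2 TPM in GABAergic neuron-like, 262.7 TPM in thalamic glutamatergic neuron-like, 15758 TPM in astrocyte-like and 113.3 TPM in oligodendrocyte-like nuclei. Of those 8 markers, 1, 2, 8 and 0 were found in at least 50% of the nuclei of these classes in that order, and their part in neuronal Bcan was not tested.

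Ncan, neurocan, a brain lectican that is abundant in development, followed the same order at lower levels. It averaged 54.4 TPM in neuron-like, 158.97 TPM in astrocyte-like and 1.27 TPM in oligodendrocyte-like nuclei. Neurons were below astrocytes in 9 of 10 plates (log2 ratio -1.53) and above oligodendrocytes in 12 of 12 (log2 ratio 4.61). Ncan was found in 65.03% of neuron-like nuclei, with a median of 60.1 TPM where found, and a trace was listed in 43 oligodendrocyte-like nuclei (14.6%), with a median of 1.27 TPM where found.

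Vcan, versican, the lectican with the widest use outside the nervous system, was found in 39 neuron-like nuclei (13.6%), 6 of 80 astrocyte-like nuclei (7.5%) and 7 oligodendrocyte-like nuclei (2.38%). Its means were 13.3 TPM in neuron-like, 14.4 TPM in astrocyte-like and 0.342 TPM in oligodendrocyte-like nuclei. The astrocyte mean rested on 2 nuclei of 703.25 and 394.2 TPM, which made up 95.2% of the sum, and it was 5.997 TPM without the plate of the highest. Leaving out single plates moved the neuron over astrocyte log2 ratio between -0.44 and 1.01, while neurons were higher in 8 of 10 plates and lower in 2.

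Hapln1, the link protein also known from cartilage, averaged 6.62 TPM in neuron-like nuclei and 9.03 TPM in astrocyte-like nuclei, and was listed at 0 in all oligodendrocyte-like nuclei. It was found in 28 neuron-like nuclei (9.79%, 6.60 to 13.8%) and 10 of 80 astrocyte-like nuclei (12.5%, 6.16 to 21.8%), intervals that overlap. Leaving out single plates moved their log2 ratio between -0.81 and 0.18. Neurons were higher in 6 of 10 plates and lower in 3.

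Hapln4, the brain link protein that partners brevican in nets, was a neuronal transcript here. Neuron-like nuclei averaged 232.03 TPM, with plate means of 91.4 at the lowest, 237.7 at the median and 423.3 at the highest (plates with at least 5 such nuclei), against 29.998 TPM in astrocyte-like and 11.8 TPM in oligodendrocyte-like nuclei. It was found in 69.9% of neuron-like nuclei, but in 3 of 80 astrocyte-like and 6 oligodendrocyte-like nuclei. The 2 highest of those astrocyte-like nuclei, at 1273 and 1118.5 TPM, came from 1 plate and held 99.6% of the astrocyte sum; without that plate the astrocyte mean was 0.109 TPM and the log2 ratio was 7.70 in place of 2.91. Neurons were higher in 10 of 10 plates against astrocytes and in 12 of 12 against oligodendrocytes.

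Tnr, the tenascin that crosslinks lecticans in nets, averaged 33.4 TPM in neuron-like, 1.22 TPM in astrocyte-like and 1.08 TPM in oligodendrocyte-like nuclei. It was found in 37.8% of neuron-like nuclei and in 2 nuclei of each glial class. Over plates with at least 5 neuron-like nuclei the means ran between 11.4 and 78.2 TPM with a median of 26.1 TPM. They were above both glial classes in every plate compared, 10 against astrocytes and 12 against oligodendrocytes.

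**Figure D2:**
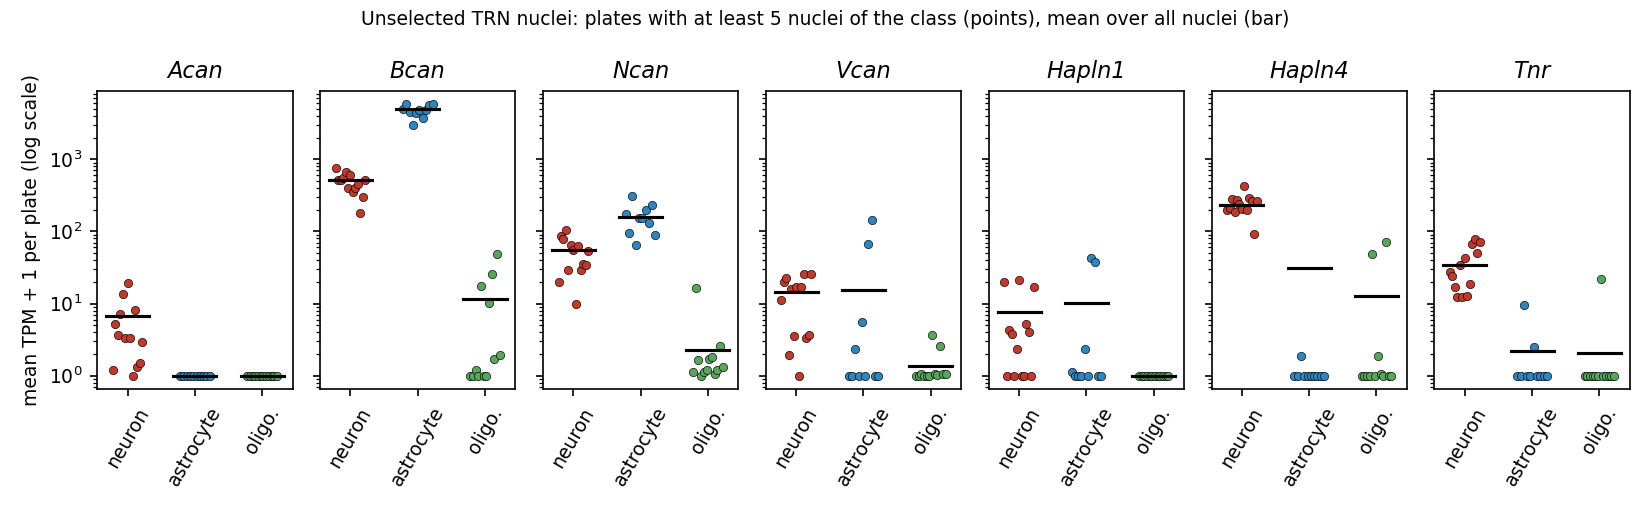
Points are plate means (TPM plus 1, log axis) for neuron-like, astrocyte-like and oligodendrocyte-like nuclei of unselected TRN plates with at least 5 nuclei of the class, and bars are means over all nuclei. Neuronal and astrocyte points do not overlap for Bcan, and the astrocyte bars of Hapln4 and Vcan stand above most of their points because 1 or 2 nuclei carry them.

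Against oligodendrocyte-like nuclei 7 of 7 members were called higher in neurons, where 37.5% of 12508 genes were. With the difference of mean log2 values in place of the ratio of means, 3 of these calls ended, those of Vcan, Acan and Hapln1, and the call of Acan against astrocytes, given next, ended too. Against astrocyte-like nuclei 3 members were called higher in neurons (Acan, Hapln4 and Tnr; 37.9% of 12968 genes) and 2 lower (Bcan and Ncan; 21.5%). On the adjacent plates, with neuron-like, astrocyte-like (n = 43) and oligodendrocyte-like (n = 94) nuclei of their own, 6 of 7 members were called higher in neurons than in oligodendrocytes (43.6% of genes), all but Vcan with a log2 ratio of 0.91. Acan, Hapln4 and Tnr were again higher in neurons than in astrocytes there (42.5% of genes) and Bcan and Ncan lower (21.5% of genes), with log2 ratios of -3.23 for Bcan and -1.08 for Ncan. Adjacent astrocyte-like nuclei held 4833 TPM of Bcan and 183.4 TPM of Ncan, and Acan and Tnr were listed at 0 in them.

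A small set of 19 nuclei, 13 from unselected and 6 from adjacent plates, carried markers of oligodendrocyte precursors, the glia that divide and mature into oligodendrocytes. Their cluster stayed unnamed, and they were picked by having at least 50% of 8 precursor markers (Pdgfra was found in 17 of them and Cspg4 in 18), so they are called precursor-marker nuclei. Vcan was found in 19 of 19, at 1.80 TPM at the lowest, 958.5 at the median and 4149 at the highest. Their mean of 1203.3 TPM stands beside means of neuron-like, astrocyte-like and oligodendrocyte-like nuclei of 14.4 TPM or less on unselected plates and 17.6 TPM or less on adjacent plates. Tnr was found in 17 of the 19 nuclei, with a median of 355.1 TPM and a mean of 552.03 TPM, above the means of neuron-like, astrocyte-like and oligodendrocyte-like nuclei. Bcan was found in all 19 (median 2205 TPM) and Ncan in 17 (median 192.97 TPM). Acan was found in 5, up to 216.6 TPM, with a mean of 24.6 TPM that lay above the 5.63 TPM of neuron-like nuclei, while both link proteins of the set were listed at 0 in all 19.

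Levels weighted by how common each class was give each class's share of a gene's summed TPM over unselected TRN nuclei with values. GABAergic neuron-like nuclei were 32.1% of the nuclei and held 84.2% of summed Acan TPM, 77.8% of Hapln4, 72.2% of Hapln1 and 47.9% of Tnr. Astrocyte-like nuclei were 11.5% of the nuclei and held 67.6% of Bcan and 39.9% of Ncan. Precursor-marker nuclei were 1.87% of the nuclei and held 68.3% of Vcan, 26.9% of Tnr and 12.2% of Acan. These are shares of TPM, a relative level with the same total in every nucleus, and say nothing of RNA per nucleus or of transcript numbers. Some labelled unselected nuclei had no values, so the class mix is that of the nuclei with values.

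**Figure D3:**
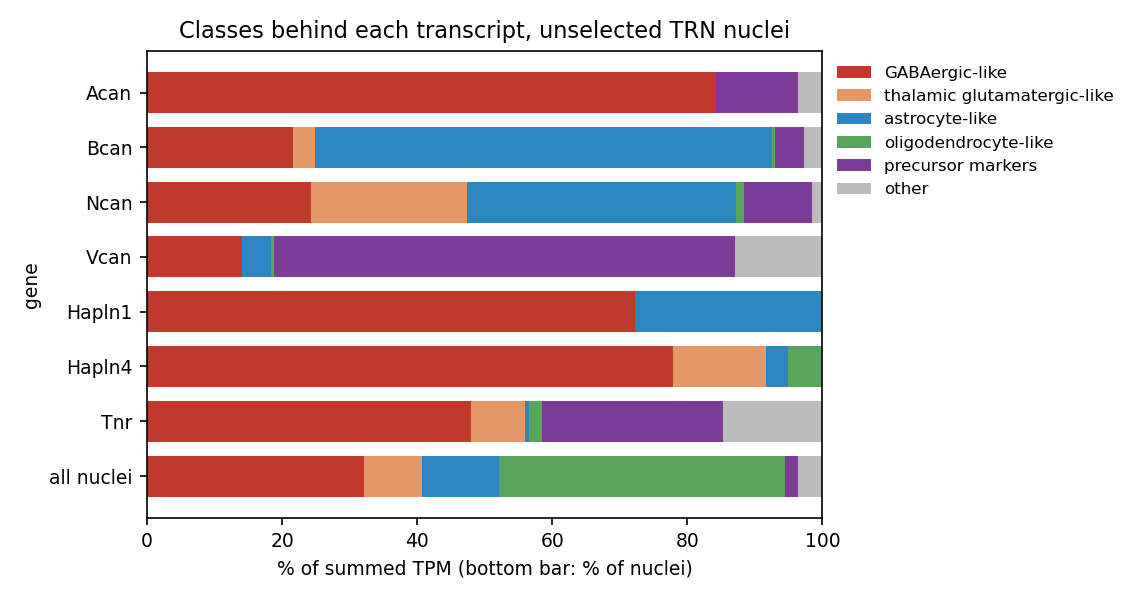
Bars give the percentage of each gene's summed TPM held by each class over all unselected TRN nuclei with values, and the bottom bar the percentage of nuclei. GABAergic nuclei hold most Acan, Hapln1 and Hapln4, astrocyte-like nuclei 67.6% of Bcan and precursor-marker nuclei 68.3% of Vcan.

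Genes that build, cut and bind the net were set beside the members from 6 lists of 30 genes. Between neuron-like and oligodendrocyte-like nuclei 20 of the 30 were at least 2-fold higher in neurons and 6 lower, and between neuron-like and astrocyte-like nuclei 16 were higher and 7 lower (median log2 ratios 1.63 and 1.23). These counts take all 30 genes whatever their level, and 19 of them reached 10 TPM in a class. Among all genes compared, 37.5% were higher and 15.7% lower in neurons than in oligodendrocytes, with 37.9% higher and 21.5% lower in neurons than in astrocytes. Of the hyaluronan synthases, the enzymes that make the backbone, Has1 averaged 16.8 TPM in neuron-like nuclei and was listed at 0 in both glial classes. Hapln2, the link protein of nodes of Ranvier and the neighbour of Bcan, averaged 11.2 TPM in neuron-like nuclei, 1510 TPM in oligodendrocyte-like nuclei and 8.82 TPM in astrocyte-like nuclei, so Hapln2 and Bcan, side by side in the genome, were high in different classes.

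Among 9 enzymes of chondroitin sulfate chains, Chpf, which extends chains, was highest in neurons (104.6 TPM in neuron-like, 41.95 in astrocyte-like and 8.42 in oligodendrocyte-like nuclei). Csgalnact1, which starts chains, averaged 12.95 TPM in neuron-like and 177.99 TPM in astrocyte-like nuclei (astrocytes also led for Chsy1 at 42.8 TPM and Chst11 at 15.7 TPM). Xylt1 (15.9 TPM) and Chsy3 (14.3 TPM) were highest in neurons and Csgalnact2 (17.1 TPM) in oligodendrocytes. Of the other proteoglycans Ptprz1, a receptor phosphatase that also gives rise to phosphacan, averaged 22.5 TPM in neuron-like nuclei and 611.3 TPM in astrocyte-like nuclei. Cspg5, neuroglycan C, averaged 28.5 TPM in neuron-like nuclei and 89.97 TPM in astrocyte-like nuclei. Of the proteases that cut lecticans, Adamts4 was at 199.96 TPM and Adamts1 at 27.8 TPM in oligodendrocyte-like nuclei, Adamts9 at 19.6 TPM in astrocyte-like nuclei and Adamts15 at 27.6 TPM in neuron-like nuclei. Of net-bound proteins and receptors, the sulfate-chain receptor Ptprs (445.5 TPM), Crtac1 (117.8 TPM) and the Nogo receptor Rtn4r (25.4 TPM) were highest in neuron-like nuclei, and the homeobox factor Otx2 was at 60.8 TPM in astrocyte-like nuclei.

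Within TRN plates of both sorts GABAergic neuron-like nuclei (n about 800, median 4830.5 detected genes) were set against thalamic glutamatergic neuron-like nuclei (n = 200, 4959 detected genes). GABAergic nuclei had more Acan, Bcan, Vcan and Hapln1 and less Ncan. That is 4 of 7 members called higher, where 9.69% of 12423 genes were, and 1 called lower, where 10.4% were. With the difference of mean log2 values 3 members were called, Bcan and Hapln4 higher and Ncan lower, and the calls of Acan, Vcan and Hapln1 ended.

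Acan averaged 6.33 TPM in GABAergic nuclei, with plate means of 0 at the lowest, 5.06 at the median and 23.2 at the highest over 19 plates, and was listed at 0 in all 200 glutamatergic nuclei. It was found in 20.1% of GABAergic nuclei (17.4 to 23.02%), against an interval for glutamatergic nuclei that reached 1.83%. All 14 plates with at least 5 nuclei of both classes showed it. Hapln1 averaged 14.7 TPM in GABAergic nuclei and 0.238 TPM in glutamatergic nuclei, where 2 of 200 had it, and it was higher in 13 of 14 plates and equal in the other. Vcan averaged 16.6 TPM in GABAergic and 1.30 TPM in glutamatergic nuclei and was higher in 12 of 14 plates. Where it was found in GABAergic nuclei (17.2%), its median was 67.99 TPM.

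Bcan averaged 589.9 TPM in GABAergic nuclei (plate means 229.2 to 762.5 TPM, plates with at least 5 such nuclei) and 282.15 TPM in glutamatergic nuclei (168.2 to 575.5 TPM). These ranges overlap, and within plates it was higher in 14 of 14. Its log2 ratio of 1.06 fell under the 2-fold line in unselected plates alone, at 0.83. Ncan ran the other way: 35.4 TPM in GABAergic and 86.01 TPM in glutamatergic nuclei, lower in 14 of 14 plates, with a log2 ratio of -1.26 that was -0.95 in NeuN plates alone. Hapln4, next to Ncan on the chromosome, averaged 320.1 TPM in GABAergic and 176.7 TPM in glutamatergic nuclei and was higher in 13 of 14 plates (log2 ratio 0.85). Tnr averaged 42.1 TPM in GABAergic and 23.2 TPM in glutamatergic nuclei and was higher in 11 of 14 plates (log2 ratio 0.84). Neither passed 2-fold.

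In GABAergic nuclei the 2 TRN sorts gave like levels of Acan, Bcan and Vcan, and differed more in Hapln1 and Hapln4. With NeuN selection and without it, Acan averaged 5.99 and 7.22 TPM, Bcan 596.4 and 572.99 TPM, and Vcan 16.5 and 16.8 TPM. Hapln1 was 17.1 TPM with NeuN selection and 8.49 TPM without it, and Hapln4 346.3 and 252.04 TPM, with plate ranges that overlap for both genes. NeuN-selected GABAergic nuclei had more detected genes (median 5040, against 4302). The sorts shared no plate, so sort and plate cannot be told apart. GABAergic clusters, described below, were also split unevenly between the sorts. The part of clusters and detected genes in these differences was not tested.

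GABAergic nuclei seldom held all components at once. Of about 800, 9 had none of the 7 transcripts, about 210 had 3, about 210 had 4 and 8 had all 7. Bcan, Hapln4 and Tnr were found together in 43.3% of GABAergic nuclei (39.8 to 46.8%) and in 46 of 200 glutamatergic nuclei (23%, 17.4 to 29.5%). Of about 160 GABAergic nuclei with Acan, about 150 also had Bcan and Hapln4. Zero values in a single-nucleus library can mean a transcript missed as well as one absent.

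The GABAergic nuclei of TRN plates fell into 5 clusters, in which the members were not clustered on. The cluster highest in Spp1 (1592 TPM, n about 160) averaged 11.4 TPM of Acan, 31.7 TPM of Hapln1 and 476.9 TPM of Hapln4. Nearly all of its nuclei came from NeuN plates, and it had the most detected genes of the 5 clusters (median 5823). Another with 1367 TPM of Spp1 (n about 220, of which about 140 from NeuN plates) had 799.7 TPM of Bcan and 455.7 TPM of Hapln4. Its median was 4578.5 detected genes. The part of sort and detected genes in the cluster levels was not tested. A cluster with 433.4 TPM of Ecel1, a peptidase-family gene that marks other TRN neurons, and 117.5 TPM of Spp1 (n about 170) had 2.91 TPM of Acan, 360.7 TPM of Bcan and 195.96 TPM of Hapln4. A cluster of about 120 nuclei with few detected genes (median 3380.5) had 401.98 TPM of Ecel1, 686.6 TPM of Bcan and 174.2 TPM of Hapln4.

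The fifth (n about 130, of which about 120 from NeuN plates) was lowest in TRN markers, with 74.9 TPM of Pvalb and Six3 found in 36.7% of nuclei. Ecel1, which is also on the TRN marker list, was not low there, at 433.4 TPM and found in 52.3% of nuclei. This cluster had 1.80 TPM of Acan, 218.4 TPM of Bcan and 2.75 TPM of Vcan. Ncan lay between 30.3 and 41.7 TPM in all 5 clusters.

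Correlation with Pvalb and Spp1 was taken among GABAergic nuclei of the same plate, on 13 plates with at least 20 such nuclei (about 700 nuclei; 8 plates with NeuN selection and 5 without). Spp1, a secreted phosphoprotein also called osteopontin, marks a share of TRN neurons. No label names an animal, so nuclei of a plate do not count as independent samples. Detected genes correlated with both sides. Median within-plate Spearman's rho with detected genes was 0.320 for Hapln4, 0.285 for Acan, 0.238 for Bcan, 0.309 for Spp1 and 0.080 for Pvalb. The correlation coefficient is a description of these nuclei, and a gene was counted where its median over plates was at least 0.1.

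Spp1 ran with Hapln4, Bcan and Acan. Median rho with Spp1 was 0.485 for Hapln4 (0.048 to 0.631, above 0 in 13 of 13 plates). For Bcan it was 0.374 (-0.033 to 0.586, above 0 in 12 of 13). For Acan it was 0.305 (0.109 to 0.443, above 0 in 11 of 11 plates where it could be computed). Hapln1 had 0.162 (above 0 in 8 of 10) and Tnr 0.118, while Ncan (0.050) and Vcan (0.007) stayed under the line. That is 5 of 7 members, where 23.2% of 10864 genes passed. Given detected genes, 4 members passed (10.7% of genes): Hapln4 at 0.392, Bcan at 0.305, Acan at 0.280 and Hapln1 at 0.122. On unselected plates alone these values were 0.203 for Hapln4, 0.059 for Bcan, 0.301 for Acan (3 plates) and -0.076 for Hapln1 (2 plates).

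The same relation in levels compares about 310 GABAergic nuclei with Spp1 and about 490 without it. Acan averaged 11.2 TPM in nuclei with Spp1 and 3.30 TPM in nuclei without it, found in 36.5% and 9.76% of them. Hapln4 averaged 496.8 TPM with Spp1 and 208.8 TPM without it, Bcan 811.97 and 449.95 TPM, and Hapln1 21.2 and 10.7 TPM. Bcan and Hapln4 were each higher with Spp1 in 14 of 15 plates with at least 5 nuclei of both kinds, Acan in 13 of 15 and Hapln1 in 10 of 15. Ncan (34.2 TPM with Spp1 and 36.2 TPM without it) and Vcan (13.6 and 18.4 TPM) were not higher. Nuclei with Spp1 had a median of 5284 detected genes and nuclei without it 4563.

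With Pvalb, median rho was 0.247 for Bcan (-0.301 to 0.384), 0.192 for Hapln4 (-0.209 to 0.559), 0.148 for Vcan and 0.133 for Acan, and 0.049 for Tnr, 0.037 for Hapln1 and 0.005 for Ncan. That is 4 of 7 members (11.1% of genes), and 4 given detected genes (7.92% of genes). Bcan passed on NeuN plates (0.253) and not on unselected plates (0.086). The cluster lowest in TRN markers was picked after the data were seen, from a list that itself holds Pvalb and Spp1, so leaving it out narrows the range of Pvalb. Without it (about 580 nuclei) 1 of 7 members passed (9.21% of genes), Hapln4 at 0.122, with Acan at 0.095, Vcan at 0.092 and Bcan at -0.016. With Spp1, 4 of 7 members passed without that cluster (23.6% of genes): Hapln4 at 0.480, Bcan at 0.283, Acan at 0.274 and Hapln1 at 0.166. Pvalb and Spp1 were themselves correlated, with a median rho of 0.342.

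In levels, about 670 GABAergic nuclei with Pvalb were set beside about 140 without it. Bcan averaged 646.45 TPM in nuclei with Pvalb and 312.9 TPM in nuclei without it, a log2 ratio of 1.04, where that for Spp1 was 0.85. Hapln4 averaged 352.5 TPM with Pvalb and 161.2 TPM without it (log2 ratio 1.12), Vcan 18.6 and 6.68 TPM (1.35), and Acan 6.82 and 3.95 TPM (0.66). Over 10 plates with at least 5 nuclei of both kinds, Vcan was higher with Pvalb in 10 and Bcan, Hapln4 and Acan in 9 each. Ncan (34.97 and 37.5 TPM), Hapln1 (14.6 and 15.6 TPM) and Tnr (42.2 and 41.5 TPM) differed little. Nuclei with Pvalb had a median of 4866.5 detected genes and nuclei without it 4510. The cluster lowest in TRN markers was kept in these levels. Pvalb was found in 28.1% of its about 130 nuclei, against 72.9 to 100% in the other GABAergic clusters. Nuclei without Pvalb therefore came largely from that cluster, and its part in these differences was not tested.

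**Figure D4:**
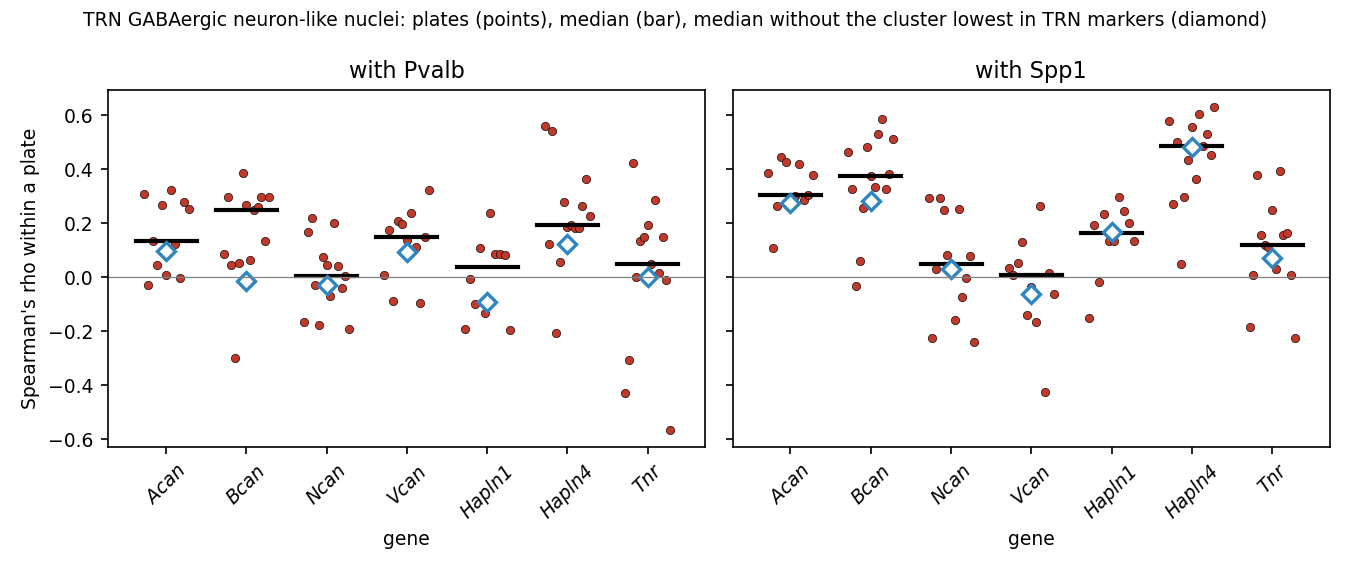
Points are Spearman's rho within single TRN plates between each gene and Pvalb (left) or Spp1 (right) in GABAergic nuclei, bars the median over plates and diamonds the median without the cluster lowest in TRN markers. For Bcan with Pvalb the diamond drops to -0.016, while for Hapln4 with Spp1 bar (0.485) and diamond (0.480) lie together.

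Among the members themselves, the highest median within-plate rho were Bcan with Hapln4 (0.281), Acan with Hapln4 (0.259, above 0 in 11 of 11 plates) and Acan with Bcan (0.217). The neighbours Ncan and Hapln4 had 0.103 and Vcan and Hapln1 0.037, so the neighbouring pairs were not the ones that ran together most. The 95 Patch-seq samples were pooled although their names fall into several series, so their values are not within a plate or series. The part of series was not tested. Over all 95, rho with Spp1 was 0.469 for Hapln4, 0.427 for Acan, 0.413 for Bcan and 0.314 for Hapln1, and -0.118 for Vcan. With Pvalb it was 0.341 for Hapln4 and 0.282 for Acan, and 0.095 for Bcan. Detected genes in these samples ran up to 13164 and had a rho of 0.492 with Bcan and 0.298 with Hapln4. Given detected genes, rho with Spp1 was 0.441 for Hapln4, 0.393 for Acan, 0.377 for Bcan and 0.269 for Hapln1. With Pvalb it was then 0.279 for Hapln4, 0.175 for Acan and -0.055 for Bcan.

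Across brain regions GABAergic neuron-like nuclei were compared between the TRN and the GFP-sorted regions (98 nuclei of hippocampus, about 100 of M2 cortex, about 120 of somatosensory cortex and 14 of striatum, with the 4 region means weighted alike). The tables were deposited separately, and the GFP sort differs from the TRN sorts, so region, table and sort cannot be told apart. No member passed 2-fold in either direction, where 9.41% of 12746 genes were higher in the TRN and 13.8% lower. Hapln4 was 320.1 TPM in TRN and 184.3 TPM in GFP-sorted nuclei and Vcan 16.6 and 8.90 TPM. Acan was 6.33 TPM in TRN and 11.8 TPM in GFP-sorted nuclei, Bcan 589.9 and 976.6 TPM, Tnr 42.1 and 78.03 TPM, Ncan 35.4 and 50.2 TPM and Hapln1 14.7 and 23.5 TPM. The call count moved between 0 and 3 with processing, so none of these differences is firm.

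**Figure D5:**
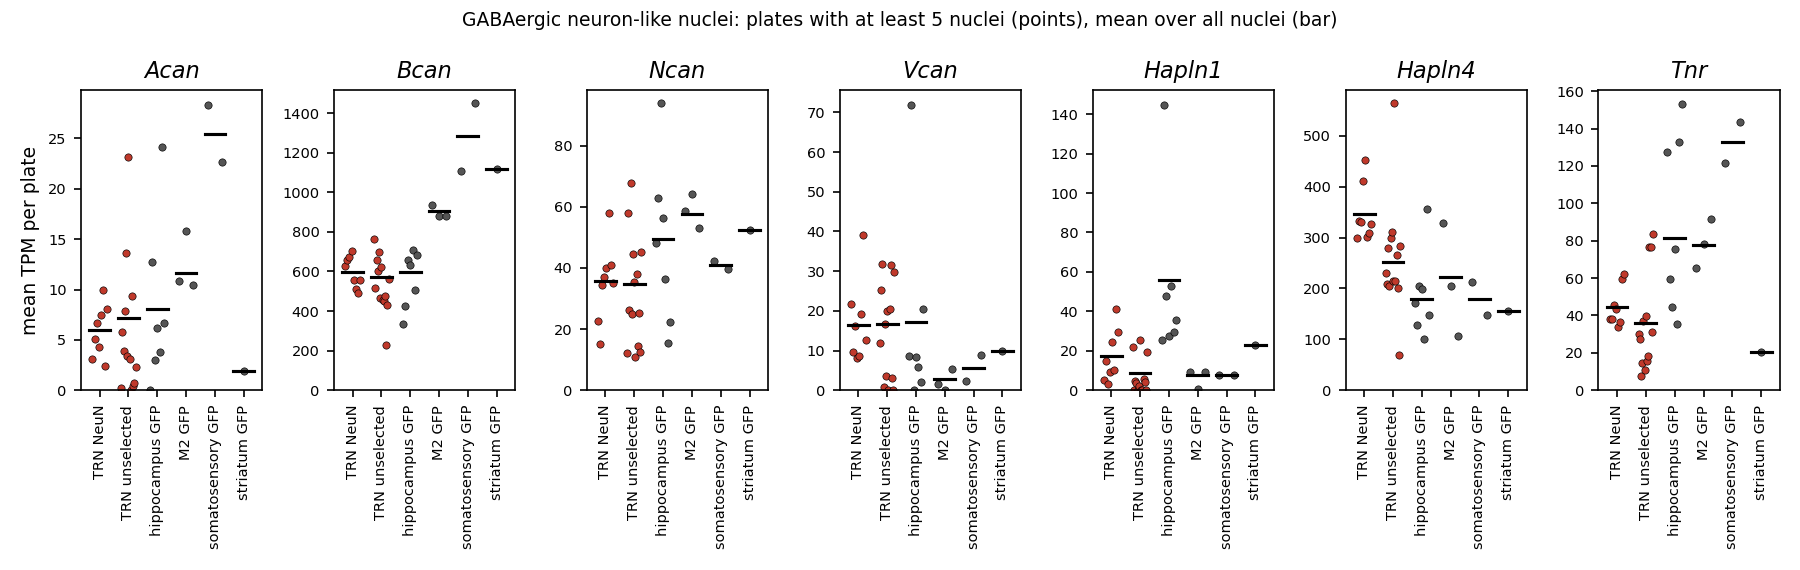
Points are plate means of TPM in GABAergic neuron-like nuclei by region and sort (plates with at least 5 such nuclei) and bars means over all nuclei. Both somatosensory plates lie above every TRN plate for Bcan, and 1 hippocampal plate at 71.9 TPM sets the hippocampal bar of Vcan.

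Between the GFP-sorted regions the members differed more. Each region had plates of its own, so region and plate cannot be told apart. Acan was highest in somatosensory cortex, at 25.5 TPM (plates 22.7 and 28.3 TPM; found in 43 nuclei, 35.5%), followed by M2 cortex at 11.6 TPM (10.5 to 15.9 TPM), hippocampus at 8.06 TPM (3.00 to 24.2 TPM) and striatum at 1.90 TPM. Hippocampal plates overlapped with those of both cortical regions, and the cortical regions did not overlap. Bcan was highest in somatosensory cortex at 1285 TPM (1453 TPM in the higher of its 2 plates), then striatum at 1117.7 TPM, M2 cortex at 904.6 TPM (879.3 to 935.7 TPM) and hippocampus at 599.15 TPM (427.2 to 709.7 TPM), without overlap between the plates of somatosensory cortex, M2 cortex and hippocampus. Striatum is 14 nuclei of 1 plate.

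Hapln1 was highest in hippocampus, at 55.98 TPM (27.3 to 144.75 TPM), against 7.59 TPM in M2 and 7.62 TPM in somatosensory cortex, and those plates did not overlap. Tnr was 132.85 TPM in somatosensory cortex, 81.3 TPM in hippocampus, 77.5 TPM in M2 cortex and 20.5 TPM in striatum. Hapln4 (156.1 to 222.5 TPM) and Ncan (40.97 to 57.6 TPM) varied least over the 4 regions. Different clusters held these nuclei: 76 of 98 hippocampal GABAergic nuclei were in 1 cluster, and nearly all somatosensory and 13 of 14 striatal ones in another, with M2 split 58 and 44.

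Set against the mean of the cortical regions, hippocampal GABAergic nuclei had Hapln1 (log2 ratio 2.73) and Vcan (1.80) called higher, where 12% of genes were, and Acan lower (-1.11; 9.36% of genes). Leaving out single hippocampal plates kept Hapln1 between 2.25 and 2.82, but took Vcan to 0.67 and Acan to -0.93. The Vcan call rested on the plate at 71.9 TPM. Within hippocampal plates, GABAergic nuclei had more Hapln1 than glutamatergic nuclei (55.98 and 3.24 TPM, higher in 7 of 7 plates), more Hapln4 (179.04 and 48.2 TPM, 7 of 7) and more Acan (8.06 and 2.78 TPM, 4 of 7), which is 3 members called higher (13.2% of genes). Leaving out 1 plate took the Acan log2 ratio of 1.26 to 0.84, under the line.

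Ncan was lower in GABAergic than in glutamatergic nuclei in each group with at least 10 nuclei of both: 49.6 and 152.5 TPM in hippocampus (7 of 7 plates; the 1 member called lower, 15% of genes), 57.6 and 197.5 TPM in M2, 40.97 and 204.6 TPM in somatosensory cortex, and 35.4 and 86.01 TPM in the TRN. Adjacent tissue gave 56.4 and 75.3 TPM, but 26 of its 27 glutamatergic nuclei came from 1 plate with fewer than 5 GABAergic nuclei, so plate and class cannot be told apart there. Acan was listed at 0 in all 44 glutamatergic nuclei of M2 cortex, all 20 of somatosensory cortex and all 200 of the TRN plates, but was found in 14 of 220 in hippocampus. The Tnr level did not follow the class in hippocampus, at 81.3 TPM in GABAergic and 80.6 TPM in glutamatergic nuclei.

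Over whole groups, whose class mix differs, the order of groups was another for each member. Patch-seq samples, ranked here and in the next paragraph, were not sorted nuclei and had the most detected genes (median 6654). Their ranks therefore compare unlike material. Acan was highest in the somatosensory GFP sort (20.7 TPM, plates 18.5 to 22.9 TPM) and was 4.66 TPM in NeuN-selected and 2.76 TPM in unselected TRN nuclei, whose plate ranges overlap. Bcan was highest in TRN-adjacent nuclei (1132.4 TPM) and somatosensory nuclei (plates 959.2 to 1203.8 TPM), which overlap in their plates, and was 517.3 TPM in NeuN-selected and 849.99 TPM in unselected TRN nuclei, which held 1 and 80 astrocyte-like nuclei. Ncan was highest in the hippocampal nuclei without a sort label (113.9 TPM) and in the hippocampal GFP sort (108.5 TPM, plates 66.4 to 155.9 TPM), and lowest in Patch-seq (40.2 TPM) and NeuN-selected TRN nuclei (42.8 TPM).

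Vcan was highest in striatum (46.6 TPM), unselected TRN (38.4 TPM) and adjacent nuclei (32.6 TPM), and lowest in M2 cortex (1.82 TPM). Hapln1 was highest in Patch-seq samples (25.6 TPM) and the hippocampal GFP sort (21.3 TPM). Hapln4 was highest in NeuN-selected TRN nuclei (304.4 TPM, plates 263.8 to 392.01 TPM), above every plate of the other groups, of which Patch-seq averaged 164.6 TPM and M2 cortex 157.2 TPM. Tnr was highest in the somatosensory sort (127.7 TPM, plates 123.1 to 132.06 TPM) and lowest in unselected TRN nuclei (23.96 TPM).

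Over 18 combinations of class and group with at least 20 nuclei, the 3 genes most like each member in log2 mean TPM were found by Pearson's r among 15090 genes, as a description. They were Dlx1 (0.953), Dlx5 and Mme for Acan, Gadd45g (0.934), Il15ra and Amigo3 for Bcan, Slc20a1 (0.948), Dlg4 and Chst1 for Ncan, and Zfpm2 (0.839), Plcg2 and Phxr4 for Vcan. For Hapln1 they were Agtrap (0.885), Ankrd34b and Ctbp2, for Hapln4 Clstn3 (0.943), St8sia1 and Entpd4, and for Tnr Celsr3 (0.970), Psd and Fam135b. Combinations share plates and the highest of 15090 values is high by selection.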

How the data were processed

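Groups come from labels of tissue, sort and plate type. Exact numbers of nuclei were 753 (NeuN-selected TRN), 694 (unselected TRN), 168 (M2), 149 (somatosensory), 286 neuron-like and 294 oligodendrocyte-like unselected, 802 GABAergic on TRN plates, 102 in M2 and 121 in somatosensory cortex. Values were held for 2653 of 3647 labelled samples; the other 994 were not analysed here, and all columns matched a sample. Replicate numbers only name nuclei. Seurat 2.2.0, TopHat2 2.0.10, RSEM, Bowtie and build mm10 are named, without roles, per the submitters' processing notes. Tables of nuclei outside the TRN and of Patch-seq samples were deposited as TPM. The deposited TRN values are natural log values of TPM multiplied by a per-nucleus factor and then raised by 1 (factor 0.288 to 6.03, median 0.777), as the values show: undone and rescaled to 1000000 a column, all 236907 values under 2 TPM fell on multiples of 0.01 (within 0.1 steps). The design had assumed TPM in every table, and the recovered TPM were used. No columns were identical.

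Each table was clustered separately without the 7 members (genes found in at least 10 nuclei, 2000 variable genes, values limited to 5 SD, 30 components, 15 neighbours, Leiden resolution 1, 20 starts). A marker counted where found in at least 50% of a cluster: 5 neuron markers, then 2 of 4 GABAergic with no glutamatergic call (chosen after marker shares were seen) or 3 glutamatergic, and 4 for other classes. A cluster with more markers of another class among its 10 leading genes lost its name. No doublet caller was run.

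Ratios are of mean TPM plus 1, with genes of at least 5 TPM in one arm as background; correlations used plates of at least 20 nuclei, genes found in at least 5 of them, and as background genes found in at least 10% of nuclei. Pathway genes were named from 10 TPM in a class of unselected TRN nuclei, and the 3 most alike genes per member. The members and lists were chosen with earlier results of these data known. Coordinates are from GENCODE M21 and promoters from RefSeq. Work used Python 3.11.15, numpy 2.4.6, scipy 1.17.1, pandas 2.3.3, scikit-learn 1.9.0, igraph 0.11.9 and leidenalg 0.10.2, and ratios and correlations were checked on simulated data.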

Additional observations from a re-analysis of the deposited data

How the results depend on the processing

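Of the recomputed counts of called members, 12 lay outside 1.5 times the value reported. With the difference of mean log2 values, 4 members were called between neurons and oligodendrocytes, 3 between GABAergic and thalamic glutamatergic nuclei and 1 between TRN and GFP-sorted nuclei. The count between TRN and GFP-sorted nuclei was also 1 with 3000 to 6000 detected genes and at clustering resolution 0.5, 2 with classes set nucleus by nucleus, with unselected plates alone and without the striatum (the last chosen after seeing the data), and 3 with TRN values as deposited. The count for Pvalb was 1 without the cluster lowest in TRN markers (chosen after seeing the data), where rho of Bcan was -0.016, and the count for Spp1 was 3 in unselected plates alone, where rho of Hapln1 was -0.008. Leaving out each plate gave 7 members between neurons and oligodendrocytes, 5 to 6 between neurons and astrocytes, 4 to 5 between GABAergic and glutamatergic nuclei, 0 to 1 between TRN and GFP-sorted nuclei, 4 for Pvalb and 5 for Spp1. The log2 ratio of Vcan between neurons and astrocytes ran between -0.44 and 1.01. The causes were not tested. Over all groups, 25 of 63 pairs of member and group were found in at least 50% of nuclei, 18 at 5 TPM or more and 29 with 3000 to 6000 detected genes. Pairing by animal was not possible, because the replicate numbers only name nuclei and no label names an animal. No result comes from a test, and classes were paired only within plates, by counting plates. Read depth is unknown, and Acan, Vcan and Hapln1 were found in a minority of nuclei in most classes.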
